A study of Caenorhabditis elegans with 4 samples.

Results

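Chromosome V held 393 of the 2162 HPL-2 peaks that the authors deposited in their combined list. Members were taken as every peak of that list placed on chromosome V, with no use of peak height, width or replicate support. They were mapped by ChIP-seq, the sequencing of DNA recovered with a chromatin protein, in hermaphrodites of Caenorhabditis elegans that were starved first-stage larvae (L1) held at 20 degrees Celsius. The series has 4 samples, 2 ChIP samples made with antibodies against GFP and 2 Input samples of genomic DNA, all from strain YL474. All 4 carried the n745 allele of lin-35 on chromosome I, the ed3 allele of unc-119 on chromosome III, and the transgene vrIs64. That transgene has HPL-2 joined to GFP and a 3xFlag tag behind the ges-1 promoter, the HPL-2 3' UTR and a working copy of unc-119. Per the labels the line had not been outcrossed and the fusion protein is made in the intestine, while the extracts were of whole larvae; no change of the native hpl-2 gene is named. Sequence of ges-1, a gene on chromosome V, is therefore present in the transgene as its promoter. A peak at ges-1 need not mark the native locus, and which peak of V, if any, lies there was not determined, since the gene table used here is on another build (WBcel235). For that reason peaks are given by position only, with no gene names. A lin-35 wild type or a strain without the tag was not analysed here, so neither the effect of lin-35 nor non-specific recovery can be read from these lists.

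HPL-2 is one of the heterochromatin protein 1 (HP1) family of worms. HP1 proteins have a chromodomain that binds methylated histone tails and a chromoshadow domain through which they pair and recruit other proteins, and they are best known for silencing repeats and keeping developmental genes off. The lin-35 gene encodes the worm relative of the retinoblastoma protein, which represses transcription with the DREAM complex. Both genes were placed in the same genetic class by their mutant effects on vulval development. In C. elegans the outer arms of the autosomes are richer in repeats and in heterochromatin marks than the centres.

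Each list gives a peak's first and last base on WormBase WS220 and a q-value, the caller's false discovery estimate for that peak against a control library. Strength is given below as that q-value, smaller being stronger, or as -log10 q, larger being stronger, and is ranked within a list only. ChIP replicate 1 held 235 peaks on V of 1288 in all, and ChIP replicate 2 held 36 of 177. The lists give no read counts, so depth is unknown and numbers of peaks cannot be compared between lists as amounts of binding. On V the peaks covered 258.3 kb in the combined list, 167.6 kb in replicate 1 and 26.9 kb in replicate 2. The chromosome was taken to reach the furthest peak end in any list, at base 20785830.

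The left end of chromosome V held few peaks, and peaks became dense only from the seventh megabase on. In the combined list the first 6 bins of 1 Mb held between 6 and 12 peaks each, with a median of 9. The other 15 bins held between 13 and 32, with a median of 24, so the counts of these parts did not overlap. The boundary between them was chosen after the counts were seen. By covered bases the parts did overlap. The first 6 bins held 1.93 to 11.4 kb each in the combined list, and the others 5.91 to 22.8 kb. Replicate 1 had 1 to 9 peaks per bin in the first 6 and 9 to 20 in the others, so that its ranges met at 9. Replicate 2 had 0 to 3 peaks per bin in the first 6 and 0 to 5 in the others, and 5 of the later bins were empty, so its few peaks did not separate the parts. The fullest bin of the combined list was the fifteenth, with 32 peaks, and the emptiest was the third, with 6.

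**Figure D1:**
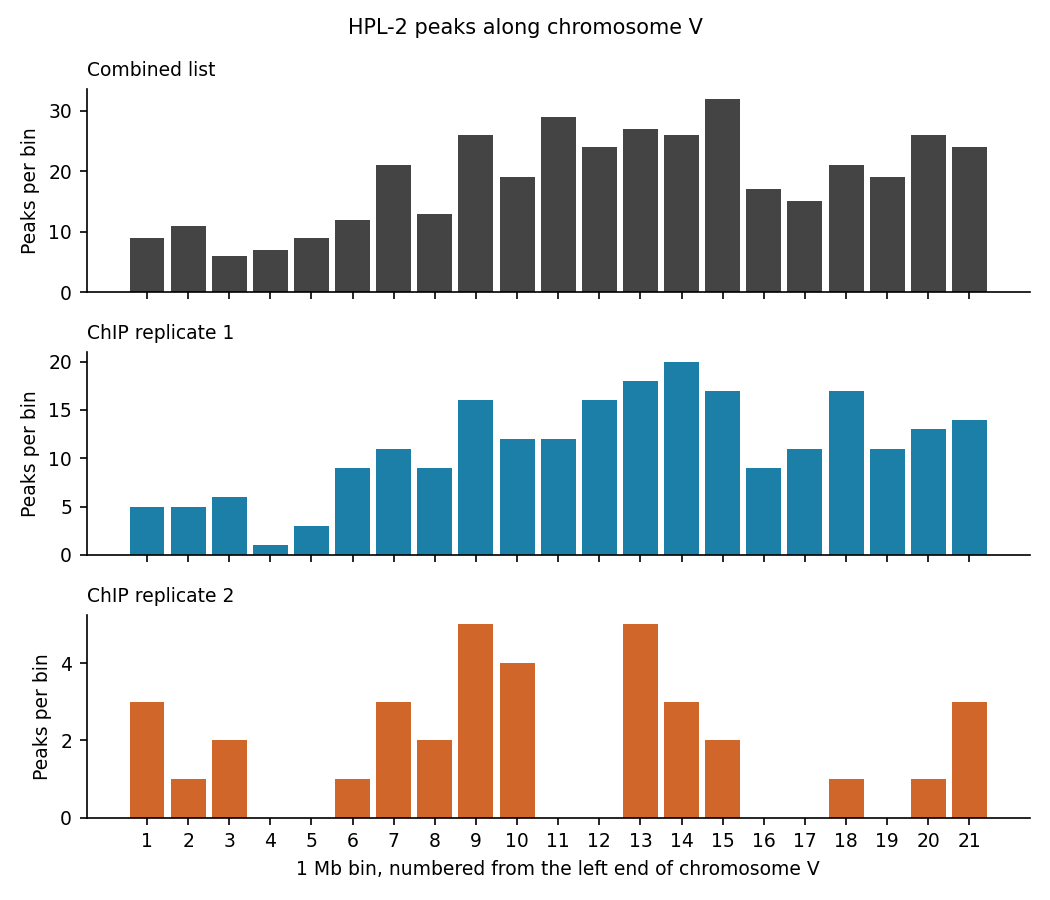
Number of peaks on chromosome V in each 1 Mb bin (vertical axis) against bin number from the left end (horizontal axis), for the combined list and each ChIP list; the last bin is shorter than 1 Mb and each panel has its own scale. The first 6 bins of the combined list hold 6 to 12 peaks and the others 13 to 32, while replicate 2 holds 0 to 5 in any bin.

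Cut into 3 equal segments of 6.93 Mb, the chromosome had 73 peaks in the left segment, 162 in the centre and 158 in the right segment. The left segment thus held 18.6% of the peaks (exact 95% interval 14.9 to 22.8%), at 10.5 peaks per Mb against 23.4 in the centre and 22.8 on the right. The right segment was as full as the centre to within these counts, so the low density lay at the left end and not at both ends. In replicate 1 the segments held 40, 99 and 96 peaks, a left share of 17.0% (12.4 to 22.4%). In replicate 2 they held 10, 19 and 7 peaks, a left share of 27.8% (14.2 to 45.2%), and there the right segment was the emptiest. Peaks were taken as independent in these intervals, which reflect counting error alone.

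The other chromosomes did not have a left segment this far below the centre in the combined list. The density of the left segment over that of the centre was 0.451 on V. It was 0.714 on I, 0.816 on II, 0.897 on III, 0.978 on IV and 0.852 on X. In replicate 1 the ratio was 0.404 on V and lay between 0.717 on I and 1.16 on IV for the rest. In replicate 2 it was 0.526 on V, and chromosomes I and III had 0.5 each, so V did not stand apart in that list. Right segments varied too. In the combined list the density of the right segment over that of the centre was 0.975 on V and 0.648 on IV. For the rest it lay between 0.791 on I and 1.05 on II. A lower density at 1 end was therefore not confined to V, although 0.451 on V was the lowest of these ratios. The difference between V and the other chromosomes was not tested.

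**Figure D2:**
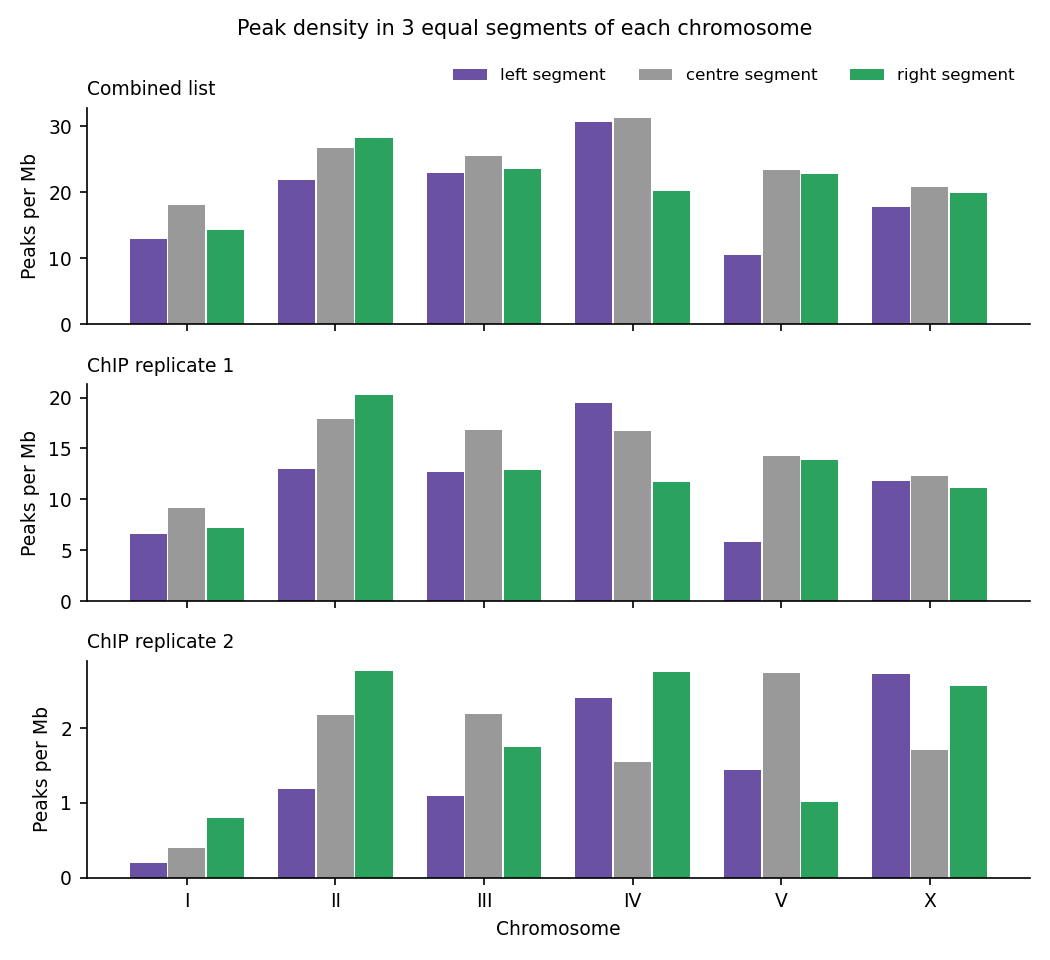
Peaks per Mb (vertical axis, own scale per panel) in the left, centre and right segment of each chromosome, one panel for each list. On V the combined densities are 10.5, 23.4 and 22.8 peaks per Mb, and in replicate 2 the right segment is the lowest.

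The 3 lists did not give the segments of V the same order in width or strength. In the combined list the median width in the left segment was 398 bp, against 409 bp in the centre and 404 bp on the right, and the median -log10 q was 2.96, 3.23 and 3.41 from left to right. In replicate 1 the median -log10 q ran the other way, at 3.22, 3.08 and 2.90, with median widths of 446.5, 461 and 416 bp. In replicate 2 the 10 left peaks had a median width of 993 bp, against 410 bp in the centre and 507 bp on the right, and the median -log10 q was 2.79, 2.88 and 2.80. Neither a weaker nor a stronger left segment was thus common to the lists. Of the 19 peaks on V at least 2 kb wide, 6 lay in the left segment, 8 in the centre and 5 on the right. The left segment held 22.1% of the covered bases, more than its 18.6% of peaks. In replicate 2 the left segment held 11.5 kb of covered bases and the centre 11.6 kb, against 3.84 kb on the right. Broad peaks were thus spread over the segments more evenly than peaks as a whole; that difference was not tested.

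The 5 longest stretches of V with no combined peak all lay in the left segment. The longest ran from base 5081263 to 5504779, a length of 423.5 kb. The next were 3003126 to 3391013 (387.9 kb), 2219201 to 2600586 (381.4 kb), 4143458 to 4511757 (368.3 kb) and 3803682 to 4142992 (339.3 kb). Neither ChIP list had a peak inside any of them. That was nearly fixed beforehand, since all 36 replicate 2 peaks and 229 of the 235 replicate 1 peaks on V overlapped a combined peak. The median gap between neighbours was 60.9 kb in the left segment, 24.9 kb in the centre and 14.1 kb on the right. The longest gap outside the left segment was 317.3 kb, from 18577655 to 18894992. What these stretches hold was not examined, because no genome or annotation of this build was used here.

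The strongest site on V, and of the whole combined list, was a segment of 6104 bp from 8758074 to 8764177 with a q-value of 1.28e-163. Replicate 1 covered 95.5% of it with a single peak, its own strongest (q-value 1.11e-123). Replicate 2 covered it with 4 peaks of 1142, 1366, 1000 and 744 bp, with q-values of 1.41e-09, 1.14e-07, 3.04e-06 and 3.91e-06. Those 4 were the second to the fifth strongest of the 36 replicate 2 peaks on V, so the segment was strong in both ChIP lists although replicate 2 held it in pieces. Another 5 combined peaks stood within the same run of close neighbours, from 8756550 to 8769496.

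The second and widest, from 6222317 to 6230103 (7787 bp, q-value 1.58e-75), looked different in the 2 ChIP samples. Replicate 1 held it as 1 peak over 99.6% of its length, ranked 2 on V there. Replicate 2 marked only 1092 and 642 bp of it, with q-values of 0.00166 and 0.00819. The third lay far to the left, from 723856 to 728296 (4441 bp, q-value 6.45e-52), inside the sparse end. Replicate 1 held 98.8% of it as 1 peak, and replicate 2 held peaks of 1419 and 1474 bp with a best q-value of 1.61e-05.

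The fourth site, from 13653544 to 13659810 (6267 bp, q-value 1.33e-48), was 2 peaks in both ChIP lists. Replicate 1 covered 90.1% of it, mostly with a peak of 4617 bp, and replicate 2 marked 629 and 410 bp. The fifth, from 12741757 to 12744904 (3148 bp, q-value 2.99e-45), was 1 peak in replicate 1 and, in replicate 2, a peak of 392 bp at its left edge and one of 836 bp at its right edge. Replicate 1 ranked these 5 sites in the same order as the combined list. The combined list belongs to the same ChIP samples, so this shared order is not independent support.

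**Figure D3:**
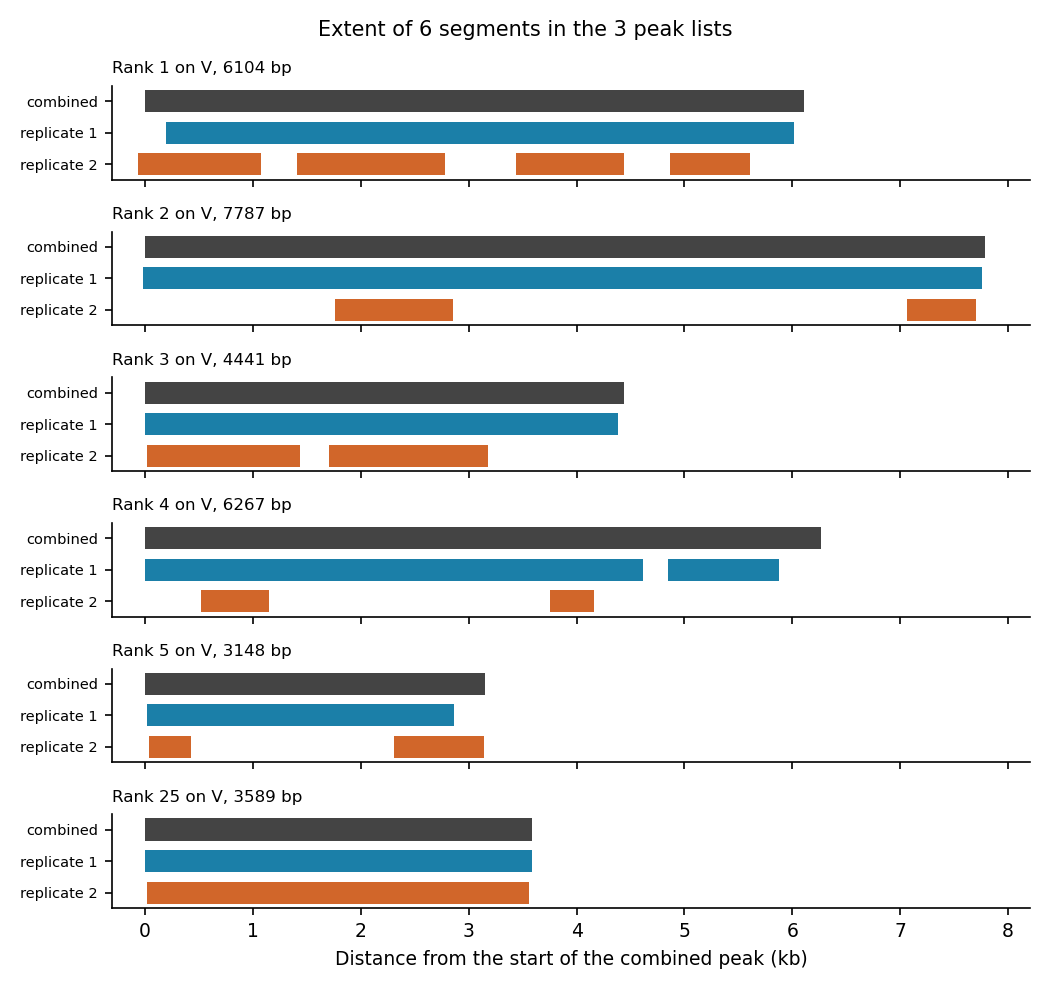
Extent of the 5 strongest combined peaks on V and of the peak ranked 25 (grey), with the peaks of replicate 1 (blue) and replicate 2 (orange) at the same place, against distance from the start of the combined peak in kb. Replicate 2 holds the strongest segment as 4 peaks and the 4 next as 2 each, while all 3 lists hold the peak ranked 25 as 1 peak of nearly the same extent.

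Replicate 2 put another site first on this chromosome. Its strongest V peak, with a q-value of 8.83e-11 and rank 19 in its whole list, ran from 264950 to 266004. It overlapped the combined peak at 264906 to 266582 (1677 bp), which ranked 24 among V peaks by its combined q-value of 1.24e-13. Replicate 1 covered 99.9% of that combined peak, with a q-value of 1.06e-14. The order of sites at the top of V thus differed between the ChIP lists.

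The peak from 1431991 to 1435579 (3589 bp, rank 25 on V, combined q-value 4.47e-13) had the same outline in every list. Replicate 1 gave 1431994 to 1435580 and replicate 2 gave 1432010 to 1435549, 99.9% and 98.6% of the combined peak. It was the 1 broad peak of V that replicate 2 covered by at least 90%, and its only V peak of 2 kb or more. The q-values in the ChIP lists were 5.33e-13 and 0.00045, ranks 92 and 73. No other combined peak lay within 5 kb of either edge. As for every other peak of V, whether this one lies at ges-1 was not determined. At that gene, reads from the transgene and from the native locus could not be told apart.

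A further cluster of strong sites lay in the centre. A group from 12548647 to 12557321 held 4 peaks, among them the sixth strongest of V at 12551626 to 12553247 (1622 bp, q-value 4.02e-30) and the tenth at 12548647 to 12550408 (1762 bp, q-value 7.72e-24). Both were found in both ChIP lists. The peak beside them at 12554182 to 12556274 (2093 bp, q-value 3.31e-07) was the 1 broad peak of V that neither ChIP list held. To the left of the group, 32939 bp away, lay 12513431 to 12515707 (2277 bp, q-value 5.04e-18), held by replicate 1 over 99.4% of its length and absent from replicate 2.

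Narrow sites also ranked high. Of the 25 strongest, 12 were under 2 kb, and the narrowest were 18967597 to 18967984 (388 bp, q-value 2.09e-16) and 9546796 to 9547187 (392 bp, q-value 7.98e-14). The first was found in replicate 1 alone, and the second in both ChIP lists, with q-values of 9.2e-08 and 0.000451. Replicate 1 held the second as a wider peak of 1039 bp and replicate 2 as one of 346 bp. On the right the strongest sites were 16963275 to 16966082 (2808 bp, q-value 6.44e-25), 20162246 to 20163260 (1015 bp, q-value 8.7e-23) and 20414087 to 20417231 (3145 bp, q-value 4.65e-19). The first of these had 2 peaks in replicate 1 and none in replicate 2, and the other two were found in both. The centre held 12 of the 25 strongest, the right segment 7 and the left segment 6.

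The remaining members of the 25 strongest filled the range between these. At the left were 2896298 to 2899182 (2885 bp, q-value 9.6e-27), which was 3 separate peaks in replicate 1 and absent from replicate 2, and 6276878 to 6278706 (1829 bp, q-value 6.42e-14), found in both. In the centre, 13267616 to 13269911 (2296 bp, q-value 3.15e-28), 9342966 to 9344611 (1646 bp, q-value 4.35e-23) and 9756408 to 9757642 (1235 bp, q-value 7.13e-23) were found in both ChIP lists. By contrast 10713306 to 10718498 (5193 bp, q-value 2.2e-21) and 11531765 to 11534938 (3174 bp, q-value 3.43e-15) were in replicate 1 only. So were 13978680 to 13979975 (1296 bp, q-value 5.2e-17), 17296108 to 17298018 (1911 bp, q-value 1.39e-14) and 16043608 to 16045551 (1944 bp, q-value 2.21e-14). The choice of 25 falls in a smooth series, since the peak ranked 25 had a q-value of 4.47e-13 and the next 4.76e-13.

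Broad peaks made up 19 of the 393 (4.83%, 2.94 to 7.45%), against 3.47% of all combined peaks, so their share was near the background. They covered 68.8 kb, or 26.6% of all bases under V peaks. Of the bases under peaks of the other chromosomes together, 16.7% were in broad peaks, from 9.39% on IV to 21.8% on I. These shares were not tested. The narrowest peak counted as broad had 2086 bp and the widest left out had 1956 bp. The number depends on how close peaks are treated, since joining peaks under 1 kb apart gave 33, and replicate 1 had 14 broad peaks of its own and replicate 2 had 1.

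Replicate 1 held 18 of the 19 broad peaks and replicate 2 held 9. Where they were found, replicate 1 covered a median of 89.5% of the combined peak (range 27.6 to 99.9%) and replicate 2 a median of 30.0% (13.8 to 98.6%). Replicate 1 held 13 of its 18 as 1 peak, and replicate 2 held 4 of its 9 as 1 peak. Broad signal on V in the combined list thus followed the outline of replicate 1 more than that of replicate 2. Support of broad peaks on other chromosomes was not counted, so this marks no trait of V.

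The broad peaks outside the 25 strongest, weaker by that choice, were found mainly in replicate 1. The exception was that at 12554182, which neither ChIP list held. A pair at 5838552 to 5841658 (3107 bp, q-value 4.76e-13) and 5842018 to 5845055 (3038 bp, q-value 2.96e-09) stood 359 bp apart, and replicate 2 held part of the first. On the right, 14830060 to 14832480 (2421 bp, q-value 0.000275) and 14840622 to 14843570 (2949 bp, q-value 1.09e-10) each had a peak in replicate 1 and none in replicate 2. Support was also thin at 16592924 to 16595009 (2086 bp, q-value 6.94e-05), of which replicate 1 covered 27.6%. Of the 19 broad peaks, 13 had another combined peak within 5 kb of an edge. The share of all peaks with such a neighbour was not counted by edges, so this number has no background of the same rule. By midpoints within 5 kb, a narrower rule, 179 of the 393 V peaks (45.5%) had a neighbour.

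Most V peaks were narrow, and width rose with strength. The median was 403 bp (middle 50% of peaks, 304 to 654 bp), against 397 bp on the other chromosomes. The range ran from 2 to 7787 bp, and 17 peaks were under 100 bp. Across the 393 peaks Spearman's rho between width and -log10 q was 0.59, and 0.58 across the 1769 peaks elsewhere. This describes peaks of 1 list, in which both values come from the same reads. Median width was 2277 bp over the 25 strongest and 391 bp over the 368 others. The V peaks of the ChIP lists had medians of 449 bp (replicate 1) and 613 bp (replicate 2).

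**Figure D4:**
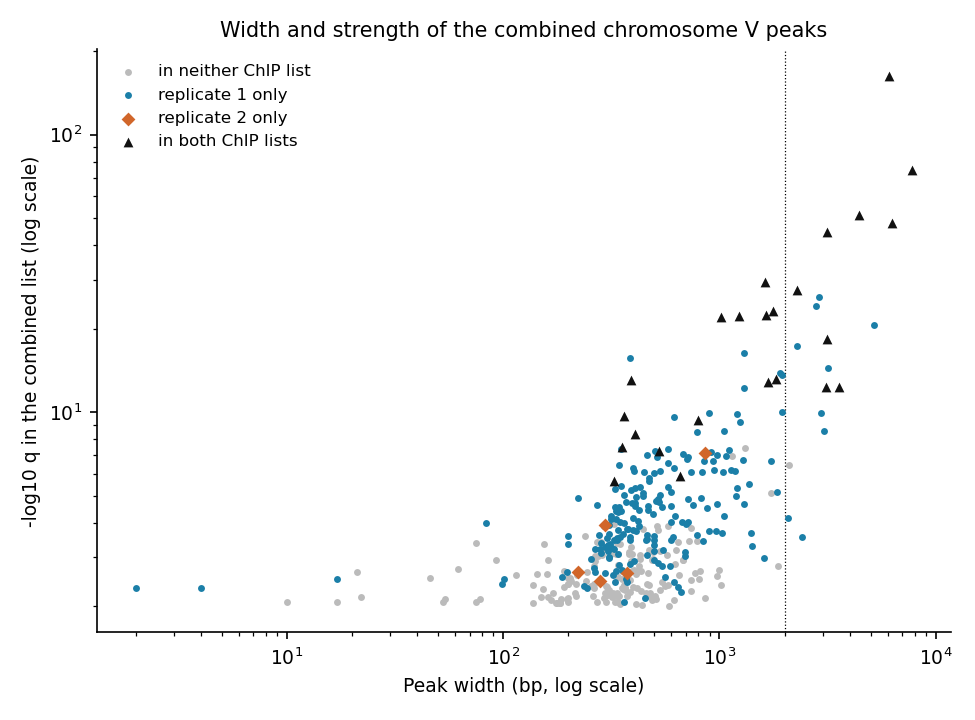
Width in bp (horizontal, log scale) against -log10 q (vertical, log scale) for the 393 combined peaks on V, marked by the ChIP lists in which each was found; the dotted line is 2 kb. Peaks found in both lists sit toward the upper right, and those found in neither reach 7.41 on the vertical axis at most.

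Of the 393 combined peaks on V, 222 (56.5%, 51.4 to 61.5%) overlapped a replicate 1 peak by 1 bp or more, the background over the whole combined list being 56.9%. For replicate 2 the number was 29 (7.38%, 5.0 to 10.4%), with a background of 7.35%. Both lists held 24 (6.11%, 3.95 to 8.95%), with a background of 6.94%. Support on V was therefore close to that of the series as a whole. Neither ChIP list held the other 166 (42.2%, 37.3 to 47.3%). Their median -log10 q was 2.47 and their median width 340.5 bp, against 15.8 and 1661.5 bp for the 24 in both.

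Support fell with rank in different ways in the 2 ChIP lists. Replicate 1 held all 25 of the strongest V peaks, 23 of the 25 after them and 47 of the 50 ranked from 51 to 100. It then held 81 of the 100 peaks down to rank 200, and 46 of the last 193 (23.8%, 18.01 to 30.5%). Replicate 2 held 8 of the first 10, 8 of the 15 after them and 7 of the 25 that followed. In the remaining classes it held 2 of 50, 1 of 100 and 3 of 193. Of the 25 strongest, 16 (64%, 42.5 to 82.0%) were thus in both ChIP lists, but with midpoints within 200 bp as the rule the share was 12%. By that rule 4.07% of all V peaks were found in replicate 2. Replicate 1 thus supported nearly all of the upper 100 and most of the 100 after them, while support in replicate 2 was largely limited to the upper 50. The 3 lists share their samples, so this order is a description. Support by rank was counted on V only, so these shares have no background and mark no trait of V.

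**Figure D5:**
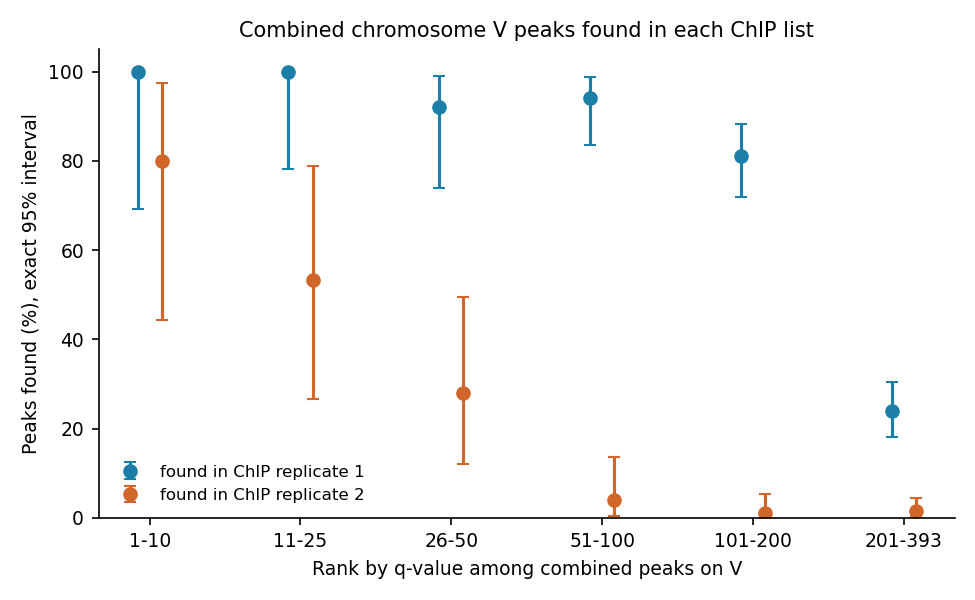
Percent of combined V peaks found in each ChIP list (vertical axis; bars are exact 95% intervals for counting error) by class of rank in combined q-value (horizontal axis). Replicate 1 stays at 81% or above through rank 200 and is at 23.8% beyond, while replicate 2 is at 80% for ranks 1 to 10 and 1% for ranks 101 to 200.

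Replicate 1 also held more of the wider peaks. It had 5 of the 17 under 100 bp and 21 of the 74 that reached 100 but not 300 bp. Of the 154 below 500 bp but at least 300 bp wide it had 85, of the 92 below 1 kb it had 61, and of the 37 between 1 and 2 kb it had 32. Replicate 2 held none of the 17 under 100 bp, an upper limit of 19.5% by the exact interval, and 3 to 7 peaks in each class between 100 bp and 2 kb. By position, replicate 1 held 36 of 73 peaks in the left segment (49.3%, 37.4 to 61.3%), 93 of 162 in the centre (57.4%, 49.4 to 65.1%) and 93 of 158 on the right (58.9%, 50.8 to 66.6%). Replicate 2 held 8 of 73 (10.96%, 4.85 to 20.5%), 14 of 162 (8.64%, 4.81 to 14.1%) and 7 of 158 (4.43%, 1.8 to 8.92%). These intervals overlap, and the order of the segments differs between the ChIP lists. Support by width and by segment was also counted on V only, without a background from the other chromosomes.

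Read from the ChIP lists, 31 of the 36 replicate 2 peaks on V overlapped a replicate 1 peak (86.1%, 70.5 to 95.3%), and 24 of the 235 replicate 1 peaks overlapped a replicate 2 peak (10.2%, 6.65 to 14.8%). All 36 replicate 2 peaks overlapped a combined peak, as did 229 of the replicate 1 peaks. The 6 left out were all weak. The wider ones were 13017204 to 13017506 (303 bp, replicate 1 q-value 0.00232), 6098600 to 6099218 (619 bp, q-value 0.00878) and 9570324 to 9570772 (449 bp, q-value 0.00944). The others started at 12536101 (12 bp wide, q-value 0.00475), 3742437 (16 bp wide, q-value 0.00708) and 15509273 (62 bp wide, q-value 0.00833). Among the 24 combined peaks in both lists, Spearman's rho between the best q-value in replicate 1 and that in replicate 2 was 0.54. The points share the combined peaks that chose them and differ in width, so this is a description.

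Of 9 combined peaks in the series that overlapped replicate 2 and not replicate 1, 5 were on V. The strongest was 19467297 to 19468157 (861 bp, combined q-value 7.35e-08). Next came 12728294 to 12728589 (296 bp, q-value 0.00012) and 20558796 to 20559016 (221 bp, q-value 0.00224). The weakest were 2672604 to 2672977 (374 bp, q-value 0.00235) and 9253725 to 9254003 (279 bp, q-value 0.00344). Their replicate 2 q-values lay between 0.0016 and 0.0084, ranks 104 to 166 of 177 in that list. They are too few to compare chromosomes.

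The 5 strongest V peaks that only the combined list held included 3 that lay within 1642 bp of a stronger site. In order of q-value they were 12442679 to 12443996 (1318 bp, q-value 3.89e-08), 17293321 to 17294465 (1145 bp, q-value 1.14e-07), 12554182 to 12556274 (2093 bp, q-value 3.31e-07), 11535168 to 11536896 (1729 bp, q-value 7.28e-06) and 19642987 to 19643310 (324 bp, q-value 0.00011). The second stood 1642 bp from the peak at 17296108 and the third 934 bp from that ending at 12553247. The fourth stood 229 bp from that ending at 11534938. All 3 of these stronger sites were among the 25 strongest and held by replicate 1. How often other V peaks stand so close to a stronger one was not counted, so the 3 cases have no background.

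Close neighbours were about as common on V as on the other chromosomes together. Of the 393 peaks, 116 (29.5%, 25.05 to 34.3%) had the midpoint of the next peak within 5 kb, against 28.2% of the 1769 peaks elsewhere. Runs of such neighbours numbered 63 and held 179 of the 393 peaks, 29 runs with 2 peaks, 24 with 3 and 10 with more. Runs were counted on V only, so these numbers have no background and mark no trait of V. The longest run had 7 peaks within 12417 bp, from 14838975 to 14851391, of which replicate 1 held 6 and replicate 2 none. Short gaps were commonest on the right, where 32 of 157 gaps were under 1 kb, against 22 of 162 in the centre and 6 of 73 in the left segment. Whether a run is several sites or 1 broad site in pieces was not tested.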

How the data were processed

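HPL-2::GFP was measured by ChIP-seq in 2 ChIP samples, and peak lists of these and of the whole series were used. The authors called peaks with PeakSeq, per the file headers and source column, and each deposited value is a q-value, one per peak. Coordinates are on WormBase WS220, moved from another build per the comment lines; none of the peaks marked there as altered was on chromosome V. Caller settings, aligner, read depth and the making of the combined list are not stated in the labels or headers. The largest q-value was 0.00996 in the combined list, and neighbouring peaks were at least 204 bp apart.

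The members and every list, threshold and alternative were chosen with earlier results of these data known. Named peaks are the 25 with the smallest q-values, those at least 2 kb wide, the 3 strongest in each of 3 equal segments, the 5 strongest in neither ChIP list and in replicate 1 only, all in replicate 2 only, replicate 1 peaks with no combined peak, and the longest gaps. Runs of neighbours and the replicate 2 ranking were added after their values were seen. A peak was found in a list when 1 bp or more overlapped. Shares carry exact (Clopper-Pearson) 95% intervals for counting error only. No test was made: peaks are not replicates, and whether the ChIP samples were separate cultures is not in the labels. Functions were tested on simulated peaks with known overlaps. Python 3.11.15, pandas 2.3.3 and SciPy 1.17.1 were used. No sequence is shown, as no genome of this build was used here.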

Additional observations from a re-analysis of the deposited data

How the results depend on the processing

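Of 41 alternatives, 36 planned and 5 chosen after seeing the data (without peaks under 100 bp), 23 stayed within the interval of the main value, within 1.5 times a count or within the SD of 116 bp between the ChIP lists' median widths. Except where the construction gives it, the cause was not tested. The combined list was not called again without a replicate, so each ChIP list was used alone in its place. The left-segment share was then 17.0% in replicate 1 and 27.8% in replicate 2, and the number of broad peaks 14 and 1. The median width was 449 and 613 bp, and the share with a neighbour within 5 kb 25.5% and 19.4%, in the same order. In each case the value further from the main one was that of replicate 2 alone. The left-segment share was 29.2% among the 24 peaks in both lists, and 11.2% of all fell in the left of 4 equal segments, a shorter stretch. Joining peaks under 1 kb apart gave 33 broad peaks in place of 19. It lowered the share with a near neighbour to 14.4%, and joining under 500 bp to 20.4%, which joining itself does; within 2 kb it was 14.5% and within 10 kb 37.7%. In the stronger part of the list the median width was 520 bp, and 86.2% and 12.4% of peaks were found in replicates 1 and 2. With midpoints within 200 bp these were 50.9% and 4.07%, and 12% of the 25 strongest were found in both lists, in place of 64%; 40% of the 25 widest were. No paired analysis was possible because no Input list was used and no result comes from a fit across samples. Unknown depth limits any comparison of peak numbers between lists.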
